A study of Rattus norvegicus with 44 samples.

Results

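The choroid plexus of rats killed 1 day after neurotoxic doses of amphetamine (AMPH) was compared with the choroid plexus of rats killed 3 h after saline. The comparison used 8 of the 44 arrays of the study: the 4 arrays whose source label reads choroid plexus, AMPH and 1 day, and the 4 whose source label reads choroid plexus, saline and 3 h. Each array carried the pooled choroid plexus of 3 rats, and the labels of the 8 pools list 23 distinct rat numbers. All rats were male Sprague-Dawley rats of the NCTR strain, 3 months old. No choroid plexus pool from rats given saline 1 day earlier was among the arrays analysed here, so the day of sampling and the treatment cannot be told apart. The other choroid plexus groups were 4 pools taken 3 h after AMPH and pools from rats exposed to environmentally-induced hyperthermia (EIH, a hot environment without drug), with 4 of these from 1 day. The study set out to learn how the choroid plexus is damaged and protects itself after such exposures.

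The choroid plexus is a folded epithelium that hangs in the brain ventricles and makes cerebrospinal fluid by pumping sodium, chloride and bicarbonate across its cells, with water following. Its epithelial cells are joined by tight junctions into a barrier between blood and cerebrospinal fluid, secrete transthyretin (Ttr), and are packed with mitochondria that feed the pumps. Beneath them lies a stroma with leaky capillaries, fibroblasts and macrophages. Amphetamine releases monoamines from nerve terminals and, at toxic doses, raises body temperature.

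The measure was the log2 intensity of 1 probe per gene on single-colour arrays, with every array moved to the same median. The values fell into 2 sets by time, each with its own distribution. Median intensity was 139 to 146 in the 3 h set (24 arrays) and 165 to 171 in the 1 day set (20 arrays), and the 75th percentile lay 2.02 to 2.03 log2 units above the median in choroid plexus of 3 h and 1.91 to 1.92 above it in choroid plexus of 1 day. Shape, time and treatment therefore change together between the groups compared. In the labels 5 rat numbers recur over 7 choroid plexus pools. Of these numbers 1 is listed both in saline replicate 4 and in AMPH replicate 2, and saline replicate 3 lists a rat number that the blood labels place at 1 day. The replicates are different pools by their labels, but some pools of the same group share rat numbers. EIH 1 day replicates 2 and 3 list 1 number in common, and replicates 3 and 4 list another. The p-values for choroid plexus below rest on the spread within all its groups, these pools included. They do not measure the spread between independent pools of the groups compared alone.

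AMPH replicate 2 stood apart from the other 7 pools. Its median correlation with the other choroid plexus arrays was 0.855, against 0.924 (saline replicate 4) to 0.975 for the remaining arrays. The markers of choroid plexus epithelium, averaged over 31 genes, stood at 9.58 in this pool, at 11.95 to 12.04 in the other AMPH pools and at 12.18 to 12.25 in the saline pools. Replicate 2 was the lowest AMPH pool for 30 of the 31 epithelial genes, against 44.9% of all 9366 genes measured on the 4 pools. Its ependymal and cilia list was also low, at 7.23 against 9.15 to 9.64 in the other AMPH pools. Lists of other cell types were high: stroma and meninges stood at 11.36 against 9.03 to 9.63, macrophages and monocytes at 10.45 against 8.17 to 8.88, and erythroid cells at 9.62 against 7.63 to 7.73. The function list of cytosolic ribosomal proteins was high too, at 14.48 against 13.50 to 13.55. The collagen gene Col1a1 read 13.93 there against 8.59 to 9.51, and osteopontin (Spp1) 13.97 against 7.55 to 9.26. Outside the groups compared, EIH 1 day replicate 1 also read high for Col1a1, at 12.94 against 8.96 to 9.16 in the other EIH 1 day pools. Its Spp1 was 10.02 against 7.04 to 8.47. The stroma and meninges list ranged from 9.20 to 10.47 in EIH 1 day, and all EIH 1 day pools were kept. AMPH replicate 2 thus had another mix of markers than the other 7 pools, with lower epithelial and higher stromal, macrophage and erythroid levels. The epithelial gene Ttr was still at the top of the scale in this pool (15.83). In pooled tissue, fewer cells of a type and less RNA per cell cannot be told apart. Counts of called genes, and the differences of the genes called, are given with and without this pool; other differences are without it where so stated.

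**Figure D1:**
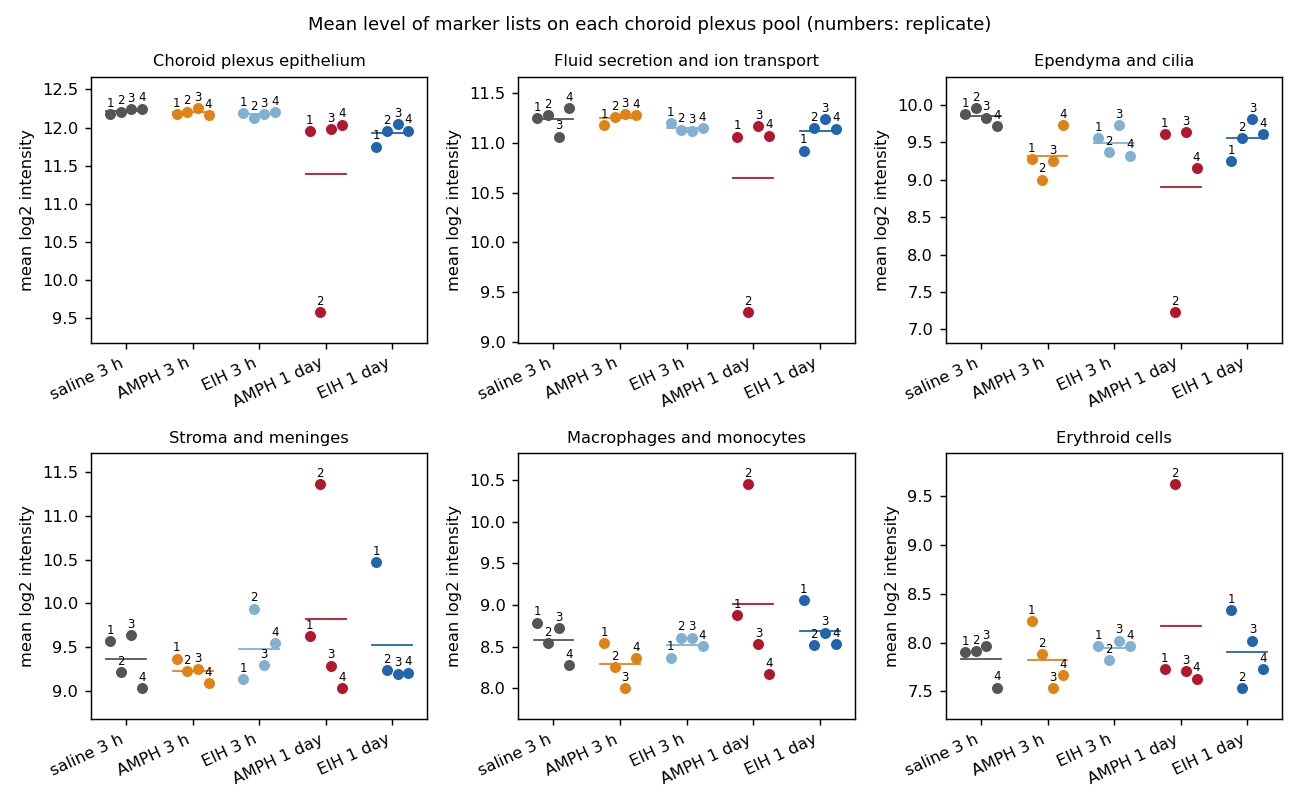
Mean log2 intensity of 6 marker lists on each of the 20 choroid plexus pools, by group, with replicate numbers beside the points and lines at the group means. AMPH 1 day replicate 2 lies at 9.58 for epithelium and 11.36 for stroma and meninges, away from the other 3 AMPH pools (11.95 to 12.04 and 9.03 to 9.63).

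With all 8 pools, 3 of 10194 genes (0.0294%) passed the test at an adjusted p under 0.05 (limma with Benjamini-Hochberg adjustment over all genes). Brip1 was higher after AMPH (1 gene, 0.00981%), and Acbd5 and Bloc1s1 were lower (2 genes, 0.0196%). At an unadjusted p under 0.05 there were 2076 genes (20.4%), 404 higher and 1672 lower. Without AMPH replicate 2, 67 of 10062 genes (0.666%) passed, 5 higher (0.0497%) and 62 lower (0.616%), and the 3 genes of the full comparison were among them. At an unadjusted p under 0.05 there were then 1669 genes (16.6%). The number of genes called depended on single pools. From 3, the count went to 0 without saline replicate 1, to 0 without saline replicate 2, to 1 without saline replicate 3 and to 5 without saline replicate 4, and to 0, 67, 13 and 37 without AMPH replicates 1, 2, 3 and 4. From 67, without AMPH replicate 2, it went to 0, 1, 34 and 70 without saline replicates 1, 2, 3 and 4, and to 0, 8 and 9 without AMPH replicates 1, 3 and 4.

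The preponderance of lower genes varied with the brightness of the probe and with the scaling. Without replicate 2, the median difference over all genes was -0.097. It was -0.13 among genes with a mean log2 level under 5, 0.008 at 5 to 7, -0.012 at 7 to 9, -0.15 at 9 to 11, -0.25 at 11 to 13 and -0.26 above 13. Of the 67 genes called, 58 had a mean level above 9, as did 3078 of all genes tested. With quantile normalization, which gives every array the same distribution, the median above 13 was -0.025, and 1 gene passed without replicate 2 (0.00994%), Brip1, which was higher; with all 8 pools none of 10194 genes passed (0%; 1328 at an unadjusted p under 0.05). With the values as deposited, without the shift to a common median, 3 genes passed with all pools and 9 without replicate 2, and all of these were higher; the median difference over all genes was then 0.11 and 0.14. With a common 75th percentile 1 gene passed in either case, and it was higher. EIH 1 day minus saline, which uses the same 4 saline arrays and crosses the same pair of sets, had a median of -0.25 above 13. AMPH 1 day minus EIH 1 day, within the 1 day set, had one of -0.022 without replicate 2. All 67 genes kept their direction under quantile normalization without replicate 2, but only 1 of them stayed called. The 67 were picked by the test on these same arrays, so the kept direction adds no support.

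**Figure D2:**
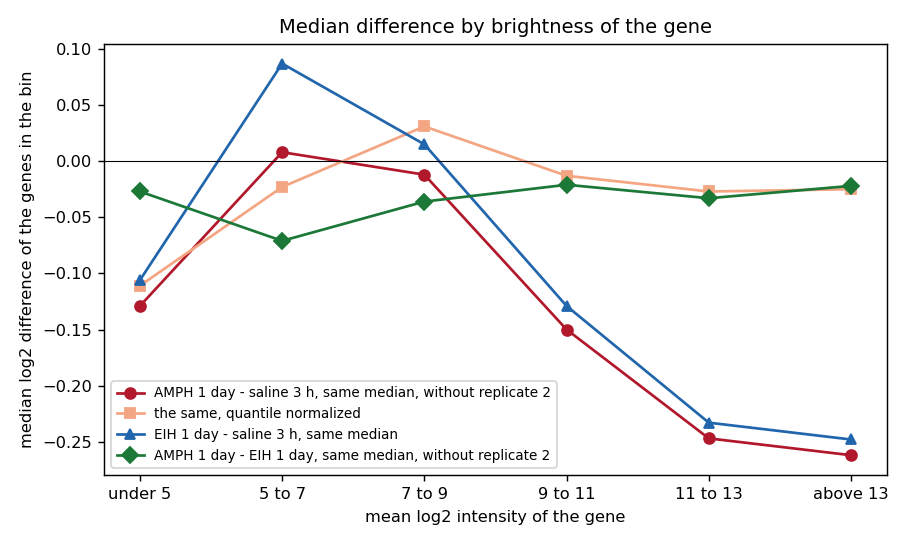
Median log2 difference of the genes in each bin of mean log2 intensity, for AMPH 1 day minus saline 3 h without replicate 2 (same median, and quantile normalized), EIH 1 day minus saline 3 h, and AMPH 1 day minus EIH 1 day without replicate 2. Both comparisons of 1 day with 3 h on the common median read -0.13 and -0.11 in the dimmest bin, 0.008 and 0.087 at 5 to 7, and -0.26 and -0.25 in the brightest bin, while the quantile normalized comparison and the one within the 1 day set stay at -0.025 and -0.022 there.

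Some abundant transcripts could not be measured at all in this comparison. Ttr, the cystatin gene Cst3, the prostaglandin synthase gene Ptgds and the ribosomal protein genes Rps6, Rps16 and Rps23 sat at the top of the scale (15.96 to 16) on all 8 arrays. Ttr read 16.07 to 16.10 in saline and 15.83 to 15.84 after AMPH, which is the shift between the sets and no measurement of Ttr.

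Brip1, a DNA helicase of the Fanconi anaemia repair pathway, was the only gene that rose with all 8 pools. Its levels were 5.28, 5.10, 5.68 and 4.56 in saline replicates 1 to 4, and 6.73, 6.03, 6.77 and 6.46 in AMPH replicates 1 to 4. Every AMPH pool lay above every saline pool, and replicate 2 was the lowest of the AMPH pools. The difference was 1.34 ± 0.21 (log2, SE; 2.54-fold; adjusted p = 0.0446 by limma), and 1.5 ± 0.21 without replicate 2 (2.83-fold; adjusted p = 0.0123). A second probe of the gene gave 0.89 with all 8 pools. Brip1 stood at 5.31 to 5.75 in the EIH pools of 1 day, 0.38 above saline, and at 5.78 to 6.31 in the AMPH pools of 3 h, 0.91 above saline; both of these share the saline arrays. AMPH 1 day exceeded EIH 1 day by 1.12 without replicate 2 (adjusted p = 0.305 by limma, not called).

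Acbd5, a peroxisomal membrane protein that binds acyl-CoA and ties peroxisomes to the endoplasmic reticulum, fell. It read 8.80, 8.84, 8.64 and 8.80 in the saline pools and 8.10, 7.92, 8.20 and 8.27 in the AMPH pools, with no overlap. The difference was -0.65 ± 0.11 (adjusted p = 0.0446) and -0.58 ± 0.10 without replicate 2 (adjusted p = 0.0287). Under quantile normalization without replicate 2 it was -0.51 (adjusted p = 0.0766, not called). Bloc1s1, a subunit of the complex that builds lysosome-related organelles, read 12.30, 12.33, 12.10 and 12.18 in saline and 11.52, 11.57, 11.60 and 11.76 after AMPH. These groups did not overlap either, and replicate 2 lay in the middle of the AMPH pools. The difference was -0.62 ± 0.10 (adjusted p = 0.0446) and -0.60 ± 0.09 without replicate 2 (adjusted p = 0.0237), and it was -0.38 under quantile normalization without replicate 2 (adjusted p = 0.274). Bloc1s1 was 0.53 lower than saline in EIH pools of 1 day and 0.10 lower in AMPH pools of 3 h. The EIH pools read 11.58 to 11.80, which overlaps the AMPH pools, and all genes with a level of 11 to 13 had a median of -0.25.

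Without AMPH replicate 2, 4 further genes rose. Pla1a, a secreted phospholipase that acts on phosphatidylserine, read 8.89, 9.15, 8.78 and 8.71 in saline and 10.18, 9.99, 9.65 and 9.49 after AMPH. All AMPH pools were above all saline pools, replicate 2 included, and the difference was 0.89 ± 0.19 (adjusted p = 0.0497), or 0.95 with replicate 2 (adjusted p = 0.0572). Gpnmb, a lysosomal membrane glycoprotein of macrophages, read 9.33, 9.13, 9.24 and 9.12 in saline and 10.32, 10.48, 9.97 and 9.77 after AMPH. It did not overlap either, with a difference of 0.81 ± 0.17 (adjusted p = 0.0497) and 0.93 with replicate 2 (adjusted p = 0.0572). The median of the 23 genes of the macrophage list, which holds Gpnmb, was 0.03 without replicate 2 and 0.59 with it. Slc5a3, which carries the osmolyte myo-inositol into cells with sodium, read 10.03, 10.29, 10.23 and 10.23 in saline and 10.73, 8.65, 10.96 and 11.44 after AMPH. The 3 pools other than replicate 2 were above saline, and replicate 2 was far below it. The difference was 0.85 ± 0.18 without that pool (adjusted p = 0.0497 by limma). With that pool it was 0.25, and a second probe then gave 0.14. Serpini2, a serine protease inhibitor that falls outside the rule for named genes because of blank cells and is named after its value was seen, had values in only 2 AMPH pools, 5.23 and 5.38, against 3.28 to 4.40 in saline (1.53 ± 0.30; adjusted p = 0.0497).

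Pla1a, Gpnmb and Slc5a3 were also above saline at 3 h after AMPH, by 1.23, 0.76 and 1.07, and 1 day after EIH, by 0.52, 0.75 and 0.41, with the same saline arrays in each comparison. Serpini2 stood below saline in those groups, by 0.29 and 0.31. Under quantile normalization without replicate 2, the rises of Pla1a, Gpnmb and Slc5a3 were 1.01, 0.94 and 1.03.

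**Figure D3:**
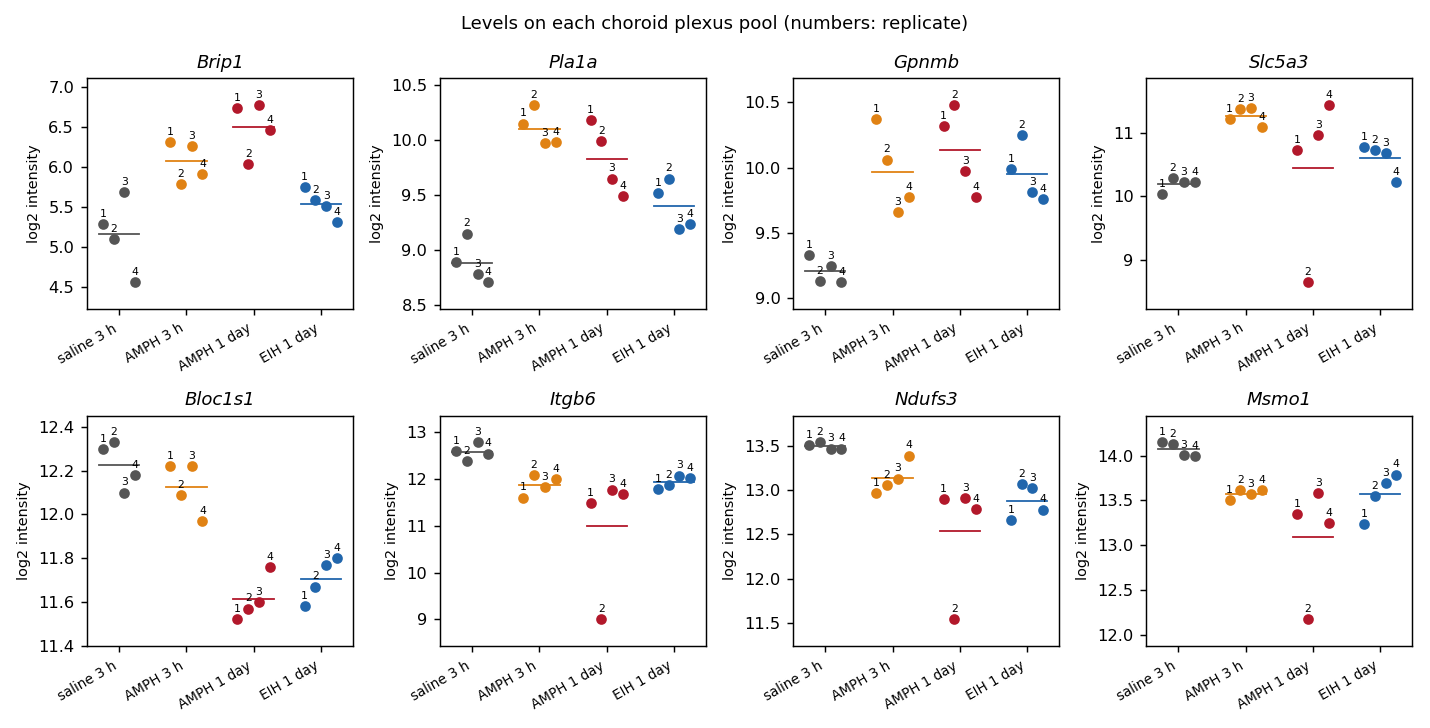
Log2 intensity of 8 genes on each pool of saline 3 h, AMPH 3 h, AMPH 1 day and EIH 1 day, with replicate numbers and lines at the group means (replicate 2 included). The upper row shows genes that were higher and the lower row genes that were lower 1 day after AMPH; replicate 2 departs from the other 3 AMPH pools for Slc5a3 (8.65), Itgb6 (9.0), Ndufs3 (11.54) and Msmo1 (12.17) and lies among them for Bloc1s1 (11.57).

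The respiratory chain, the mitochondrial enzymes that turn fuel into ATP, held 6 of the 62 genes that fell without replicate 2. Of its 51 genes, 6 fell (0.616% of all genes), none rose, and 32 had all 3 AMPH pools below all saline pools, against 13.2% of all genes. The list's median was -0.31, and -0.57 with replicate 2. In complex I, which takes electrons from NADH, Ndufs3 read 13.51, 13.54, 13.47 and 13.47 in saline and 12.90, 11.54, 12.91 and 12.79 after AMPH. The saline pools were close together, and all AMPH pools were lower. Ndufs3 fell by 0.63 ± 0.11 without replicate 2 (adjusted p = 0.0325). Ndufv2, another complex I subunit, fell by 0.54 ± 0.10 (adjusted p = 0.0325), Ndufa2 by 0.51 ± 0.10 (adjusted p = 0.0375) and Ndufb9 by 0.51 ± 0.11 (adjusted p = 0.0497). Of the ATP synthase, Atp5mc3, the membrane ring subunit, fell by 0.49 ± 0.10 (adjusted p = 0.0362) and Atp5f1d, of the stalk, by 0.56 ± 0.12 (adjusted p = 0.0497); Ndufb9 and Atp5f1d are named after their values were seen. With replicate 2 none of these 6 genes was called, and the differences were -0.96 for Ndufs3, -0.70 for Ndufv2, -0.66 for Ndufa2, -0.79 for Ndufb9, -0.93 for Atp5mc3 and -0.82 for Atp5f1d.

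Replicate 2 was the lowest AMPH pool for most of these genes too: the list averaged 12.17 there and 13.18 to 13.22 in the other AMPH pools, against 13.32 to 13.58 in saline. The saline means include isolated low values of Cox8a and Ndufs8 in saline replicate 3, which lower the mean of that pool. The list's median of -0.31 stands beside -0.26 for all genes above a level of 13. The 6 genes called fell further than either, but they were picked by the test, so these medians are no yardstick for them. Under quantile normalization without replicate 2 the list stood at -0.077 and none of its genes passed. It was -0.31 in EIH 1 day minus saline, which shares the saline pools, and -0.074 in AMPH 3 h minus saline, within the 3 h set. AMPH 1 day minus EIH 1 day, without replicate 2, gave 0.009. In blood, where saline rats of both times exist, saline 1 day minus saline 3 h gave -0.21 for the same list. How much of the fall belongs to AMPH, to the day and to the set of arrays cannot be told apart.

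Other mitochondrial gene groups, gathered by symbol after the data were seen, also read lower. Of 60 mitochondrial ribosomal protein genes 5 fell without replicate 2 (Mrpl37, Mrpl48, Mrps25, Mrps28 and Mrps34) and the median was -0.25. Of 16 genes of the import translocases, which carry proteins through the mitochondrial membranes, 2 fell (Timm13 and Timm22) and the median was -0.32. The 28 complex I genes gathered in this way had a median of -0.39 with 4 genes called lower. Over all genes 0.616% were called lower. Under quantile normalization without replicate 2 these medians were -0.11, -0.13 and -0.14, beside -0.01 for all genes. Acat1, the mitochondrial thiolase of ketone body metabolism, fell by 0.72 ± 0.13 (adjusted p = 0.0325). Glrx5, a mitochondrial glutaredoxin that helps to assemble iron-sulphur clusters, fell by 0.70 ± 0.13 (adjusted p = 0.0325). With replicate 2 the differences of Acat1 and Glrx5 were -1.03 and -0.90, not called. Both stood below saline 3 h after AMPH as well, by 0.79 and 0.60.

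The cholesterol pathway read lower 1 day after AMPH than in saline. This pathway builds cholesterol from acetyl-CoA through mevalonate, isoprenoids, squalene and lanosterol. None of its 20 measured genes had a positive difference without replicate 2, 11 had all 3 AMPH pools below all saline pools (13.2% of all genes), and 2 fell by the test (0.616% of all genes). Acat2, the cytosolic thiolase of the first step, read 10.81, 10.73, 10.62 and 10.56 in saline and 9.92, 10.37, 10.14 and 9.70 after AMPH. Replicate 2 was the highest of the AMPH pools here and still below saline, and Acat2 fell by 0.76 ± 0.14 without it (adjusted p = 0.0325). A second Acat2 probe gave 0.04 with replicate 2 included, beside -0.65 for the first probe, so the fall rests on 1 probe. Msmo1, the sterol methyl oxidase that removes methyl groups after lanosterol, read 14.15, 14.13, 14.01 and 14.00 in saline and 13.35, 12.17, 13.58 and 13.25 after AMPH. It fell by 0.68 ± 0.12 without replicate 2 (adjusted p = 0.0325). With replicate 2 the difference was -0.65 for Acat2 (adjusted p = 0.0757) and -0.98 for Msmo1 (adjusted p = 0.068). Of the enzymes between them, Fdps, which makes farnesyl diphosphate, stood at -0.55 ± 0.13 (adjusted p = 0.0659) and Mvd, which decarboxylates mevalonate diphosphate, at -0.39 ± 0.10 (adjusted p = 0.0681), neither called. Idi1, Insig1, Sqle and Cyp51 stood at -0.77, -0.72, -0.69 and -0.63, likewise not called.

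The median of the cholesterol list was -0.36 without replicate 2 and -0.58 with it. Its genes had a mean level of 9.33, and all genes with a level of 9 to 11 had a median of -0.15. Under quantile normalization without replicate 2 the list stood at -0.29, and over all 25 settings of the processing it ranged from -0.66 to -0.29. The median was -0.36 in EIH 1 day minus saline and -0.37 in AMPH 3 h minus saline. All 3 comparisons share the saline arrays, and AMPH 3 h lies in the same set of arrays as saline. AMPH 1 day minus EIH 1 day, without replicate 2, gave -0.036. In blood, saline 1 day minus saline 3 h gave -0.10.

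**Figure D4:**
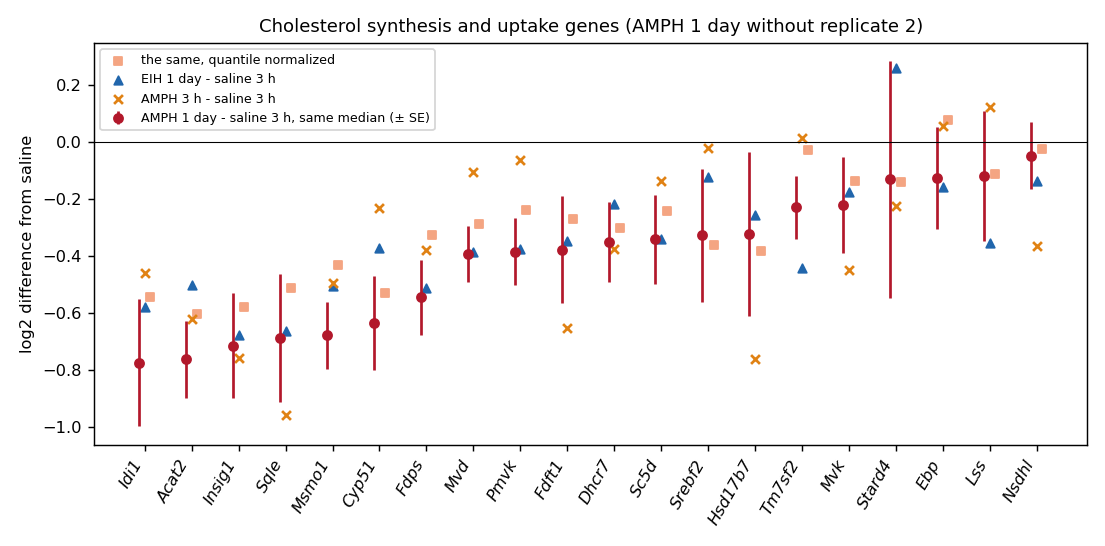
Log2 difference from saline 3 h of each of the 20 cholesterol genes: AMPH 1 day without replicate 2 (same median, bars show SE), the same after quantile normalization, EIH 1 day and AMPH 3 h. All 20 points of AMPH 1 day lie below 0, led by Idi1 (-0.77) and Acat2 (-0.76); the points of EIH 1 day and AMPH 3 h share the saline arrays.

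Among the remaining falls without replicate 2, Itgb6 had the smallest adjusted p, together with Brip1. Itgb6 encodes the beta subunit of an epithelial integrin that activates latent TGF-beta. It read 12.59, 12.38, 12.78 and 12.54 in saline and 11.49, 9.0, 11.77 and 11.68 after AMPH, so all AMPH pools were below saline and replicate 2 was far lower than the rest. The difference was -0.93 ± 0.13 (adjusted p = 0.0123), and -0.70 under quantile normalization. Itgb6 was 0.64 below saline 1 day after EIH and 0.70 below it 3 h after AMPH. Slc5a5, the sodium-iodide symporter, stood at 12.85 to 13.15 in saline and at 12.12, 9.65, 12.44 and 12.22 after AMPH. It fell by 0.75 ± 0.15 without replicate 2 (adjusted p = 0.047). With replicate 2 the difference was -1.59 for Itgb6 (adjusted p = 0.0861) and -1.40 for Slc5a5 (adjusted p = 0.112).

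Other genes fell without replicate 2 while that pool read higher than the other AMPH pools. Ninj2, an adhesion protein of injured nerve, read 7.39, 6.15, 6.32 and 7.37 in saline and 5.55, 8.16, 5.64 and 5.24 after AMPH, and fell by 1.33 ± 0.27 without replicate 2 (adjusted p = 0.047; -0.66 with it). Slc18a2, the transporter that loads monoamines into vesicles, read 7.13, 6.59, 6.32 and 7.70 in saline and 5.96, 6.77, 5.38 and 5.62 after AMPH. It fell by 1.29 ± 0.27 (adjusted p = 0.0485 by limma). With replicate 2 included a second probe gave 0.19, against -1.0 for the first. Loxl1, which cross-links elastin, fell by 0.83 ± 0.18 (adjusted p = 0.0497), with replicate 2 at 13.82 and the other AMPH pools at 12.15 to 12.72. Kcnk13, a potassium leak channel, fell by 0.80 ± 0.15 (adjusted p = 0.0325). Adgre1, a surface receptor of macrophages, stood at 7.68 to 7.99 in saline and at 7.06, 8.65, 7.25 and 7.22 after AMPH. It fell by 0.61 ± 0.13 without replicate 2 (adjusted p = 0.047), while the macrophage gene Gpnmb rose. With replicate 2 the differences were -1.0 for Slc18a2, -0.46 for Loxl1, -0.53 for Kcnk13 and -0.24 for Adgre1, none of them called.

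Further genes that fell without replicate 2 were the peroxidase gene Prdx1 (-0.67 ± 0.12, adjusted p = 0.0325), the cyclin D1 gene Ccnd1 (-0.66 ± 0.14, adjusted p = 0.0436) and the actin-binding cortactin gene Cttn (-0.75 ± 0.17, adjusted p = 0.0497). Lix1 (-0.92 ± 0.20) and the aminopeptidase gene Dnpep (-0.69 ± 0.15) also fell, each at an adjusted p of 0.0497. With replicate 2 the differences were -0.65 for Prdx1, -0.51 for Ccnd1, -0.86 for Cttn, -1.48 for Lix1 and -0.59 for Dnpep, none of them called. Ccnd1 was the 1 gene called of 32 in the cell cycle list, and Prdx1 the 1 called of 22 in the metallothionein and oxidative stress list, against 0.666% of all genes.

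No gene of the epithelial identity or fluid secretion lists passed the test. Of the 31 epithelial genes, 12 had all 3 AMPH pools below all saline pools and none had them above (13.2% and 2.53% of all genes), with a median of -0.25, and -0.91 with replicate 2. It stands beside -0.25 for all genes with a level of 11 to 13, and under quantile normalization without replicate 2 it was -0.031. Kcne2, a potassium channel subunit of the apical membrane, read 12.38, 12.45, 12.50 and 12.38 in saline and 11.81, 8.83, 12.11 and 11.78 after AMPH (-0.53 ± 0.13 without replicate 2, adjusted p = 0.0649). The folate receptor gene Folr1 stood at 14.27 to 14.48 in saline and 13.96 to 14.09 in the AMPH pools other than replicate 2 (10.52), a difference of -0.37. Kl, the klotho gene, stood at -0.30 without replicate 2 and -1.07 with it. Of the 25 genes of fluid secretion and ion transport, 7 were below saline without overlap (13.2% of all genes), with a median of -0.22 and -0.033 under quantile normalization. Atp1b2, a subunit of the sodium pump, stood at -0.48 ± 0.15 (adjusted p = 0.117). The 28 genes of barrier transporters and junctions had a median of -0.11 with none called.

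The chaperones, which refold proteins after heat and other stress, spread widely among the AMPH pools, and none was called. Hspa1b, the stress-inducible chaperone, read 8.49, 8.5, 8.22 and 7.35 in saline and 12.53, 10.82, 10.05 and 14.92 after AMPH. All AMPH pools were higher, but they lay far apart, and the difference of 3.94 ± 1.09 (adjusted p = 0.099), or 4.36 ± 1.19 without replicate 2 (adjusted p = 0.0872), did not pass the test. Hspb1, a small heat shock protein, read 11.24 to 11.47 in saline and 13.07, 11.19, 11.42 and 15.56 after AMPH. Only AMPH replicates 1 and 4 were above saline, and the difference without replicate 2 was 2.03 ± 0.72 (adjusted p = 0.175). Hsp90aa1 read 12.42 to 12.83 in saline and 13.22, 11.94, 13.27 and 14.43 after AMPH (1.05 ± 0.28 without replicate 2, adjusted p = 0.0755). Over the 26 chaperone genes none was called, 8 had all 3 AMPH pools above saline without overlap, against 2.53% of all genes, and the median was 0.55 without replicate 2 and 0.19 with it. Without saline replicate 4 as well as AMPH replicate 2, the median was 0.44.

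AMPH replicate 4 had the highest chaperone levels of its group. The chaperone list averaged 10.23 to 10.56 in saline and 10.89, 10.06, 10.65 and 11.81 in AMPH replicates 1 to 4. Replicate 4 was the highest AMPH pool for 21 of the 26 chaperone genes (80.8%), against 20.5% of all genes. Its level lies within the range of the pools taken 3 h after AMPH (11.20 to 12.23), and above the 4 EIH pools of 1 day (10.52 to 10.62). The same pool was high for the genes of endoplasmic reticulum stress, the response to unfolded proteins in the secretory pathway. That list averaged 10.48 to 10.77 in saline and 10.57, 10.04, 10.29 and 11.44 after AMPH, and replicate 4 was the highest pool for 18 of 20 genes (90%). The saline means include an isolated low value of Hspa5 in saline replicate 1, which lowers the mean of that pool. In the 3 h AMPH group the list stood at 11.69, 11.79 and 11.50 in replicates 1 to 3 and at 10.62 in replicate 4. The array of AMPH 1 day replicate 4 has the scale of the 1 day set, and why its stress genes are high was not tested. Without AMPH replicates 2 and 4, an alternative chosen after seeing the data, the median of the chaperone list was 0.21 and that of the endoplasmic reticulum stress list -0.25, while 9 of 9785 genes (0.092%) were called.

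**Figure D5:**
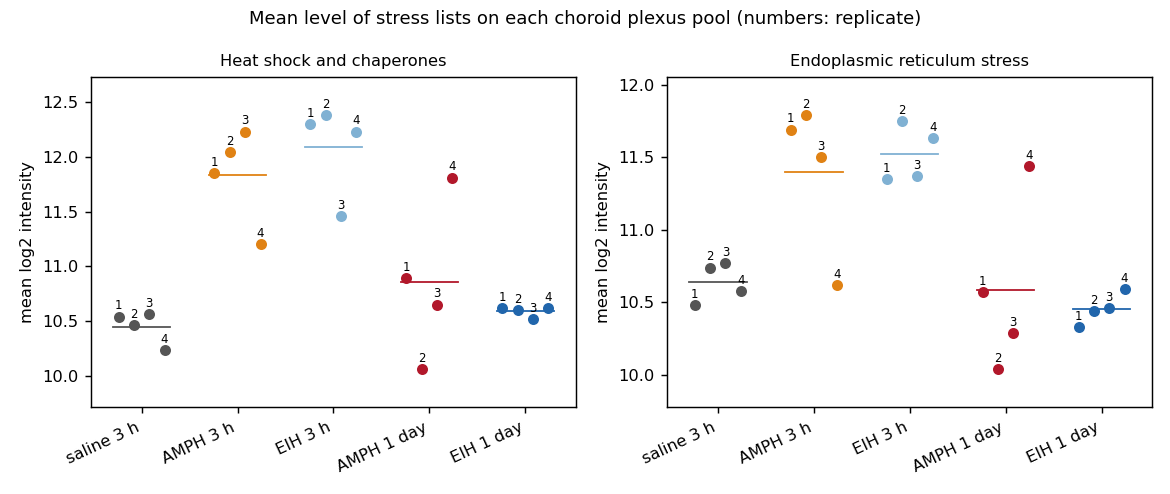
Mean log2 intensity of 26 chaperone genes and 20 endoplasmic reticulum stress genes on each choroid plexus pool, by group, with replicate numbers and lines at the group means. AMPH 1 day replicate 4 (11.81 and 11.44) lies above the other AMPH 1 day pools and the saline pools, and within the range of the AMPH 3 h pools.

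The promoters of 4 genes are shown because both lists moved together in replicate 4, and genes of each list are known to carry a response element: the heat shock element (GAA, 2 bases of any kind, TTC, 2 of any kind, GAA) for the chaperones, and the endoplasmic reticulum stress element (CCAAT, 9 bases of any kind, CCACG) for the second list. The genes were chosen after their values were seen. The plan had kept such searches to lists with 3 or more called genes, and neither list had any. Sequences are RefSeq promoters of the rat build GRCr8, 250 bases before to 50 after the start of the gene, read 5′ to 3′ along the gene. Both strands were searched, capitals mark the matches, and a match is a description of the letters and not a bound site. Hsph1, which exchanges the nucleotide of other chaperones, has 1 match, at positions 215 to 227 of its window, chr12:10427118-10427417 (plus strand). Chordc1, a cochaperone, has 3 overlapping matches, the first at positions 261 to 273 of its window, chr8:23650571-23650870 (plus strand).
Hsph1: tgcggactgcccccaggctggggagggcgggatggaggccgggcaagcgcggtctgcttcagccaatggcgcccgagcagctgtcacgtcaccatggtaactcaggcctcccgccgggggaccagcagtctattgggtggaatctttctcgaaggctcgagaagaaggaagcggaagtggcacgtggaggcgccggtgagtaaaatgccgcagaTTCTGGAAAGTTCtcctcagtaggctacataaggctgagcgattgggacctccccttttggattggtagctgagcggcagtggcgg
Chordc1: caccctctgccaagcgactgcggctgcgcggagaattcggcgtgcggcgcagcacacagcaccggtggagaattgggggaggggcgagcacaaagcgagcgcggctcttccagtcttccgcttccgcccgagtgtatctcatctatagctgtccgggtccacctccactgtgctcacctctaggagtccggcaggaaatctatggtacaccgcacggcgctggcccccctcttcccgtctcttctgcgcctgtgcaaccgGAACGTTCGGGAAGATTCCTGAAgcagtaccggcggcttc
Creld2, a protein of the endoplasmic reticulum, has 1 match of the second element, at positions 106 to 124 of its window, chr7:121789134-121789433 (plus strand), and Calr, the calcium-binding chaperone calreticulin, has 1 at positions 19 to 37 of its window, chr19:40213117-40213416 (plus strand).
Creld2: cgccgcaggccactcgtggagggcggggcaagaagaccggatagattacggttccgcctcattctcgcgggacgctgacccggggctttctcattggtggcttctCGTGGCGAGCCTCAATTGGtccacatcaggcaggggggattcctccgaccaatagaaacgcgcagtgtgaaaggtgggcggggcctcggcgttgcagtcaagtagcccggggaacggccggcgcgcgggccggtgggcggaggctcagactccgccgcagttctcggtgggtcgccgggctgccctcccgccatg
Calr: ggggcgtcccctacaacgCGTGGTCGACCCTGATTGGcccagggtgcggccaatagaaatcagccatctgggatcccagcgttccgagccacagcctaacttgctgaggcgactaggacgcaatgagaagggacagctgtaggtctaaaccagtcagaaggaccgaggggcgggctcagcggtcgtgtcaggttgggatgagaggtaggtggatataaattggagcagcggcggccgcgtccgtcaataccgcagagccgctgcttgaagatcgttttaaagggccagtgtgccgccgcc
The heat shock element was found in 6 of the 21 chaperone genes with a promoter in the table (28.6%), against 267 of all 33469 promoters (0.798%). The endoplasmic reticulum stress element was found in 6 of 16 genes of its list (37.5%), against 22 of 33469 (0.0657%). No promoter held both. Genes of both lists were known to carry these elements, so the shares describe the lists and test nothing.

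The levels of these 4 genes follow. Since the genes were chosen after their values were seen, their likeness to their lists is no separate result. Hsph1 read 8.95, 9.06, 9.24 and 8.41 in saline and 9.64, 8.20, 9.36 and 11.46 after AMPH. Chordc1 read 12.49, 12.20, 12.26 and 11.85 in saline and 12.33, 11.12, 12.46 and 13.55 after AMPH. Replicate 4 was far above the saline range for these genes and replicate 2 below it. Creld2 read 9.77, 9.54, 9.68 and 9.26 in saline and 9.47, 8.86, 9.30 and 10.84 after AMPH. Calr read 11.34, 11.42, 11.86 and 11.74 in saline and 11.22, 10.37, 11 and 12.42 after AMPH. In both, replicate 4 alone was above the saline range, and the other 3 AMPH pools were within or below it. Trib3, a pseudokinase raised by the integrated stress response, was above saline in all AMPH pools (8.66, 7.92, 7.51 and 8.78 against 7.13 to 7.42), with a difference of 1.01 ± 0.34 without replicate 2 (adjusted p = 0.156).

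Heme oxygenase, the enzyme that degrades heme and is induced by oxidative and heat stress, was higher in every AMPH pool than in any saline pool but varied widely. Hmox1 read 7.74, 7.79, 7.54 and 7.24 in saline and 9.90, 9.31, 8.02 and 9.85 after AMPH. The difference was 1.69 ± 0.61 (adjusted p = 0.146), and 1.68 ± 0.68 without replicate 2 (adjusted p = 0.23), so it was not called.

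Hormone-driven and immediate early genes leaned higher with none called. The glucocorticoid response list of 26 genes had 22 positive differences and a median of 0.42 without replicate 2 (0.53 with it), against -0.097 for all genes. Fkbp5, a glucocorticoid-induced cochaperone, read 8.89, 9.06, 8.41 and 7.69 in saline and 9.84, 11.28, 9.06 and 8.97 after AMPH. Replicate 4 overlapped saline, replicate 2 was the highest, and the difference without it was 0.78 ± 0.31 (adjusted p = 0.221). Angptl4, an inhibitor of lipoprotein lipase, stood at 0.92 ± 0.36 (adjusted p = 0.213). The immediate early list of 26 genes, transcription factors and phosphatases switched on within minutes of a stimulus, had 22 positive differences and a median of 0.49 (0.75 with replicate 2). Dusp1, which dephosphorylates MAP kinases, read 7.22, 7.59, 7.07 and 6.34 in saline and 8.63, 8.31, 7.65 and 8.43 after AMPH, without overlap (1.19 ± 0.53 without replicate 2, adjusted p = 0.273). Fos read 4.32 to 6.15 in saline and 7.36, 6.93, 6.11 and 8.69 after AMPH. Saline replicate 4 was the lowest saline pool for Fkbp5, Angptl4, Dusp1 and Fos. It also had the most blank probes of the choroid plexus arrays (6.37%). Without it and AMPH replicate 2, the glucocorticoid and immediate early medians were 0.34 and 0.33, against -0.15 for all genes. At an unadjusted p under 0.05 (limma), 0 genes of either list were then higher, against 6 and 3 with saline replicate 4. Lower were 2 and 0. The same 2 lists had medians of 0.052 and 0.17 in EIH 1 day minus saline, and 0.48 and 1.23 in AMPH 3 h minus saline.

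Among acute phase and complement genes, 7 of 25 were above saline without overlap when replicate 2 was left out, 2 were below it, and none was called. Over all genes the shares without overlap were 2.53% above and 13.2% below. The list's median was 0.38, and 0.66 with replicate 2. Without saline replicate 4 as well as AMPH replicate 2, it was 0.27. C6, a component of the complement attack complex, read 7.59, 7.71, 7.49 and 6.70 in saline and 10.22, 9.29, 9.29 and 7.92 after AMPH. All AMPH pools were higher, with a difference of 1.77 ± 0.49 without replicate 2 (adjusted p = 0.0885), and EIH 1 day stood 1.85 above saline. Lbp, which binds bacterial lipopolysaccharide, read 4.19, 4.82, 4.63 and 3.93 in saline and 6.98, 10.89, 7.10 and 5.24 after AMPH (2.05 ± 0.61 without replicate 2, adjusted p = 0.111). The cytokine list of 32 genes had a median of 0.001 without replicate 2 and 0.25 with it. In it, Il1b stood at 6.55 to 7.47 in saline and at 7.79, 9.75, 7.29 and 8.15 after AMPH, and Il1r2, the decoy receptor of interleukin-1, at 3.10 to 5.81 and at 7.46, 8.17, 5.57 and 7.42.

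Antigen presentation genes of MHC class II read lower in the 3 AMPH pools that were not replicate 2. RT1-Bb, a class II beta chain, read 9.14, 9.15, 9.16 and 9.27 in saline and 8.18, 9.89, 8.30 and 8.39 after AMPH. The saline pools were tightly grouped, 3 AMPH pools were below them and replicate 2 above. The difference without replicate 2 was -0.89 ± 0.22 (adjusted p = 0.0681) and was not called. RT1-Db1 stood at -0.84 (adjusted p = 0.0988), RT1-Da at -0.88 (adjusted p = 0.117) and the invariant chain gene Cd74 at -0.67 (adjusted p = 0.12). Of the 10 genes of the list, 4 were below saline without overlap (13.2% of all genes) and none was called, with a median of -0.55 (-0.33 with replicate 2; -0.46 under quantile normalization without it). The macrophage gene Aif1 stood at 10.09 to 10.24 in saline and at 9.62, 11.34, 9.46 and 8.68 after AMPH.

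The NK and cytotoxic lymphocyte list had a median of -0.60 without replicate 2, with 6 of 17 genes below saline without overlap (13.2% of all genes) and none called. Saline replicate 4 had high values for some of these genes. Klrd1, an NK cell receptor, read 5.81, 5.89, 6.02 and 11.24 in saline and 3.68, 5.26, 5.13 and 4.16 after AMPH (-2.91 ± 1.13 without replicate 2, adjusted p = 0.213). The chemokine gene Ccl5 read 7.91, 7.80, 7.54 and 10.01 in saline and 6.56, 7.99, 7.0 and 6.54 after AMPH (-1.62 ± 0.51, adjusted p = 0.126). Perforin (Prf1) stood at -1.35 (adjusted p = 0.161). The list's median was much the same, -0.61, without saline replicate 4 and AMPH replicate 2. The T cell list had a median of 0.018 without replicate 2.

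Lists of neighbouring tissue differed in their medians once replicate 2 was left out. They were -0.037 for stroma and meninges, -0.046 for endothelium, -0.024 for mural cells and smooth muscle, -0.21 for erythroid cells and -0.14 for platelets, with no gene called in these lists. Ependyma and cilia stood lower, at -0.37, with 4 of 11 genes below saline without overlap, and oligodendrocytes at -0.30, with 3 of 16 (13.2% of all genes); none was called. Opalin, a myelin protein of oligodendrocytes, read 8.74, 7.49, 7.15 and 7.75 in saline and 5.96, 6.81, 6.32 and 5.71 after AMPH. All AMPH pools, replicate 2 included, were below saline, with a difference of -1.79 ± 0.40 without replicate 2 (adjusted p = 0.0529). The medians of the other cell lists were 0.18 for neutrophils, -0.32 for B cells, 0.32 for mast cells, -0.13 for neurons, -0.20 for astrocytes and 0 for pineal and pituitary glands together, likewise with none called. What part such tissue has in the other differences was not tested.

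The remaining function lists had no or 1 gene called without replicate 2. Their medians were -0.24 for the proteasome, -0.21 for cytosolic ribosomal proteins, -0.16 for hypoxia and glycolysis, -0.15 for the growth factor axis, -0.10 for fatty acid oxidation and fasting, -0.19 for the interferon response, -0.018 for the circadian clock, 0.012 for matrix and remodelling, 0.12 for p53 and growth arrest and 0.009 for monoamine receptors and turnover, whose 1 called gene was Slc18a2. Under quantile normalization without replicate 2, the proteasome and the ribosomal proteins stood at -0.036 and 0.009.

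Between AMPH and EIH at 1 day, within a single set of arrays, no gene of 10204 was called (0%; 548 at an unadjusted p under 0.05), and none of 10076 without replicate 2 (0%; 543 at an unadjusted p under 0.05). EIH 1 day minus saline called none of 10267 genes (903 at an unadjusted p under 0.05). The 67 genes of AMPH come from the fit without replicate 2, and the EIH count from all 20 arrays, where AMPH called 3. EIH was not fitted without AMPH replicate 2. These counts do not show that AMPH and EIH differ, and the direct comparison called none. In blood, saline 1 day minus saline 3 h called 139 of 9707 genes (1.43%), 28 higher and 111 lower, in rats that received no drug. Each blood array held 1 rat. That count also depended on single rats: it was 458, 26 and 23 without replicates 1, 3 and 4 of 1 day, and 48, 14, 10 and 5 without replicates 1 to 4 of 3 h. Of the 62 genes that fell in choroid plexus without replicate 2, 61 were tested in blood and 32 of these (52.5%) were lower there at 1 day, against 59.8% of all genes tested in blood.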

How the data were processed

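Total RNA of pooled rat choroid plexus was isolated with Tri Reagent and carried through Agilent's Quick Amp procedure with the Cy3 dye, per the labels' protocols. The authors deposited 1 intensity per probe and array in a value table. How the scans were read, background-corrected and normalized is not given in the sources used here. Of 14055 probes, 11472 were named by accession, 1372 by current symbol, 78 by synonym and 4 kept the listed symbol, and 1129 had no gene; the probe with the highest mean stood for each of 10412 genes. Intensities under 1 were set to 1, log2 was taken and each array was moved to a common median. Genes with at least 2 values in each group were tested with limma 3.58.1 in R 4.3.3, on the 20 choroid plexus arrays together (19 without AMPH 1 day replicate 2), and a gene was called where its p, adjusted after Benjamini and Hochberg, was under 0.05. Blank cells were left out and not imputed. Tables were made with the R package data.table (version 1.17.8), Python 3.11.15 and pandas 2.3.3, and figures with matplotlib 3.10.9.

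Groups came from the source and treatment labels; the EIH 1 day pools are titled Control but carry EIH in both. Replicates were numbered in accession order. Genes were named by rule: up to 12 of the largest rises and falls among called genes whose pools did not overlap, in both fits, without predicted loci or genes with a blank; up to 4 genes per list with the smallest p without replicate 2; and a fixed set of genes, some of which were not tested. The text prints a part of these. The members and the 40 lists were chosen with earlier results of these data known, and 3 lists by symbol (mitochondrial ribosome, import, complex I) were added after seeing the data. The scripts were tested on simulated data. Alternatives covered scaling, filters, probe choice, variance model and left-out pools. The number of arrays limits the precision.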

Additional observations from a re-analysis of the deposited data

Results flagged for a closer look

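In groups of 4 pools, a value was marked where 1 pool lay far from the other 3 relative to the range of the group. Of 129 groups checked for single genes 20 were marked, and of 86 groups checked for list means 14. Chance marks about 1 in 20 groups that were not selected on their values. The genes checked were those named in the text, many of them chosen by the fit without replicate 2, and some lists share genes. That rate is therefore no yardstick for these counts. Of the marks, 26 were in AMPH 1 day and all 26 were replicate 2, and 8 were in saline 3 h, 6 of them replicate 4.

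AMPH replicate 2 lay above the other 3 AMPH pools for Adgre1 (8.65 against 7.06 to 7.25), Kcnk13 (8.01 against 6.86 to 7.01), Ninj2 (8.16 against 5.24 to 5.64) and RT1-Bb (9.89 against 8.18 to 8.39). It also lay above them for the means of MHC class II (9.32), neutrophils (7.45), NK and cytotoxic lymphocytes (6.37), erythroid cells (9.62), matrix and remodelling (9.55) and cytosolic ribosomal proteins (14.48).

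It lay below them for the epithelial and transport genes Folr1 (10.52), Itgb6 (9.0), Kcne2 (8.83), Kl (8.42), Slc5a5 (9.65) and Atp1b2 (11.07), for the respiratory chain genes Atp5mc3 (12.25), Ndufb9 (13.23) and Ndufs3 (11.54), and for Mvd (8.16). The list means below the others were those of epithelium (9.58), fluid secretion (9.30), cholesterol synthesis (8.54), respiratory chain (12.17), import translocases (9.51) and complex I (11.87).

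Saline replicate 4 lay above the other saline pools for Ccl5 (10.01 against 7.54 to 7.91), Klrd1 (11.24 against 5.81 to 6.02) and RT1-Bb (9.27 against 9.14 to 9.16). It lay below them for Spp1 (5.68 against 7.14 to 7.17) and for the means of erythroid cells (7.54) and of hypoxia and glycolysis (10.02). Saline replicate 2 was high for Atp5mc3 (14.63 against 14.46), and saline replicate 3 low for Kcnk13 (7.55 against 7.77 to 7.79).

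Levels 1 day after AMPH were compared with those 3 h after AMPH; with no choroid plexus saline of 1 day among the arrays analysed, responses at the 2 times were not compared. With all pools 1 gene passed (limma with Benjamini-Hochberg adjustment), Piwil1, which was lower at 1 day by 10.76 on the log2 scale and is named after its value was seen, and 88 passed without AMPH 1 day replicate 2. The 2 times lie in different sets of arrays.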

How the results depend on the processing

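No paired analysis was possible because the saline and AMPH pools list different rats, apart from 1 rat number listed in both groups. The replicate numbers used here follow accession order. The number of genes called, 3 with all pools and 67 without AMPH replicate 2, depended on the processing; the cause was not tested. Given in that order, it was 3 and 9 with the values as deposited, 0 and 1 with quantile normalization, 1 and 1 with a common 75th percentile, and 1 and 2 with the median taken over probes without blanks. It was 142 and 216 without the dimmest 25% of genes, 43 and 171 with genes measured on all 20 arrays, 135 and 269 with an intensity trend and robust variance, and 362 and 340 with array weights. It was 0 and 0 with only the arrays compared (796 and 1122 at an unadjusted p under 0.05), 0 and 29 with the mean over probes, 0 and 23 with every probe alone, and 0 and 0 with a minimum change of 1.5-fold. Leaving out saline replicate 3, whose rat number recurs in blood, gave 1 and 34. Leaving out the pair of pools that share a rat number gave 70, and leaving out every pool with a recurring number gave 0 in both. Leaving out 1 pool at a time gave 0 to 67 and 0 to 70. Chosen after seeing the data, leaving out AMPH replicates 2 and 4 gave 9, and quantile normalization without replicate 2 gave 1. AMPH against EIH at 1 day had 0 in every setting run (377 to 1010 at an unadjusted p under 0.05). The blood count of 139 was 58 as deposited and 5 to 458 with 1 rat left out.

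Brip1 was called in 17 of 25 settings, Bloc1s1 in 11 and Acbd5 in 10, each with 1 direction throughout. Acat2 turned to 0.33 with the mean over probes. Calr turned to 0.011 without the pair of pools that share a rat number and without every recurring number, and to 0.18 with quantile normalization without replicate 2. Creld2 turned to -0.18 without AMPH replicates 2 and 4, and ranged from -0.36 to 0.30 with 1 pool left out. Slc5a3 then ranged from -0.082 to 0.85 and Chordc1 from -0.23 to 0.58. Of all list medians recomputed, 972 moved by less than the spread between replicates and 60 by more. That spread includes AMPH replicate 2, which widens it, so these counts cannot show that the medians are stable. The epithelial median, for one, ranged from -1.19 to -0.031 over the 25 settings. Signal at the top of the scale limits what can be said of the most abundant transcripts.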

Other observations

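Single saline pools held isolated low values in abundant genes, which were noticed after the data were seen. Hspa5, the main chaperone of the endoplasmic reticulum, read 9.26 in saline replicate 1 and 14.67 to 15.02 in the other saline pools. In saline replicate 3, the respiratory chain genes Cox8a and Ndufs8 read 8.97 and 6.65, against 16.07 to 16.09 and 10.73 to 10.93 in the other saline pools, and the sodium pump subunit gene Atp1b3 read 7.7 against 14.05 to 14.32. Such values lower the mean of any list that holds the gene in that saline pool, so the saline ranges of those list means are affected.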
